A study of Homo sapiens with 6 samples.

Results

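The synaptic vesicle and release genes are 38 genes chosen by name for the proteins they encode, out of 19970 protein-coding genes on chromosomes 1 to 22 and X. Every ChIP-seq peak and every differential region that overlapped a gene's RefSeq span (GRCh38), extended by 2 kb at each end, was assigned to it. The cells were D283, an established human line of Group 3 medulloblastoma, a childhood tumor of the cerebellum, grown as floating tumorspheres in neural precursor medium. In the OTX2low group, the homeodomain factor OTX2, which Group 3 tumors express at high levels, had been silenced with 30 nM siRNA. The OTX2high group received a scramble siRNA and kept its OTX2, and all cells are from this 1 line. The histone marks profiled were H3K4me3, found at promoters in use or held ready, and H3K27me3, written by Polycomb complexes at repressed genes, each in 1 library per condition. No difference below therefore has a replicate check. The study mapped the marks to look at the silencing of transcription factors, and the release genes are neuronal genes outside that group.

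Neurons signal by filling small vesicles with transmitter, docking them at the active zone of the presynaptic membrane and fusing them there when calcium enters. Synapsins tether vesicles in reserve, synaptotagmins sense calcium, SNARE proteins drive the fusion, complexins hold it ready, and active zone scaffolds such as UNC13 and RIM proteins make vesicles competent to fuse. In the cerebellum, granule neurons release glutamate loaded by vesicular glutamate transporters, while stellate, basket and Purkinje cells release GABA. Many of these genes are repressed outside neurons by REST, a zinc finger factor.

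The H3K4me3 libraries held 20914582 tags in OTX2low and 33137731 in OTX2high, and the H3K27me3 libraries 33885628 tags in the one labelled OTX2low and 40271458 in the one labelled OTX2high. The 2 IgG control libraries carry titles and silencing labels that name opposite conditions, so they were placed in no group. The H3K27me3 peak lists have the same conflict, since each one's header names the condition opposite to its label. They are called by their labels here, and no direction is taken from them alone. H3K27me3 directions follow the condition names in the differential table, whose read scaling goes with the headers, and they would turn round if the labels were right. The IgG pairing goes with the headers too. The H3K27me3 list labelled OTX2high and the H3K4me3 list of OTX2low had the control of 55079542 tags. The H3K27me3 list labelled OTX2low and the H3K4me3 list of OTX2high had the control of 85840108 tags. H3K4me3 peaks lay at 8 of 8 Group 3 and photoreceptor marker genes, 5 of 5 granule neuron markers and 4 of 4 mature neuron markers in both lists, but at 1 of 4 glial and 1 of 4 mesenchymal markers. Of 4 immune and endothelial markers, 1 had a peak in OTX2low and 2 in OTX2high.

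H3K4me3 marked nearly all of the release genes. Peaks lay at 37 of the 38 in OTX2low and at 36 in OTX2high, where 73.7% and 75% of all genes had one. RPH3A, which encodes rabphilin, a RAB3 effector on vesicles, had none in either list. SLC17A6, which encodes the vesicular glutamate transporter VGLUT2, had H3K4me3 peaks in the OTX2low list alone, as did 0.691% of all genes. These peaks were thin. The first, at chr11:22338339-22338748, spanned the annotated start and had a pileup of 14 fragments and a 6.24-fold enrichment, and the other, at chr11:22337622-22337802, had a pileup of 9 and 4.16-fold. Their -log10 q-values were 8.42 and 3.67, and no differential region was listed at SLC17A6. The widest release gene peaks were those of SLC17A7 (6548 bp in OTX2low and 6700 bp in OTX2high), SYT1 (6260 and 8518 bp) and SYN2 (6154 and 8210 bp), the 3 genes with a peak of 5 kb or more in either list. At the other end SYT13 had 1 narrow peak in each list, of 396 bp and 5.41-fold enrichment in OTX2low and of 409 bp and 4.82-fold in OTX2high.

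The release genes fell into similar numbers with more H3K4me3 in OTX2low and in OTX2high, while most listed genes of the genome had more in OTX2high. Regions are those the authors' diffReps scan called between the pair of libraries, and a gene is counted in a direction when all of its regions share it. Of the 38 genes, 13 were higher in OTX2low (6% of all genes), 12 higher in OTX2high (41.7%) and 7 had regions in both directions (5.99%). The other 6, SYT3, SNAP91, SV2A, SLC17A6, SLC32A1 and SYNGR1, had no listed region, which does not show that the mark was equal there. With regions inside H3K4me3 peaks alone, 10 had more in OTX2low (3.63%), 11 had more in OTX2high (42.2%) and 5 were mixed (2.55%). Within 2 kb of the start of the 31 genes with an annotated one, 6 were higher in OTX2low (3.35%) and 8 higher in OTX2high (39.3%). With regions of an adjusted p of at most 0.0001 in the authors' deposited table, 12 were higher in OTX2low and 7 higher in OTX2high. No share over all genes is given for this cut, so these 2 counts cannot be set against the genome. In bulk chromatin, a lower mark in every cell and a mark in fewer cells cannot be told apart.

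The lead region of a gene is its listed region with the most normalized reads, that is, reads scaled by the authors' constant for each library. Differences are given as log2 of OTX2low over OTX2high, with a 95% interval from the recovered read numbers that covers counting error only. The median over the 10724 genes with a listed region was -0.53, so most listed regions were higher in OTX2high. The median over the 32 release genes with one was 0.67, which is 1.2 above it. Their quartiles were -0.59 and 1.07, with 19 lead regions higher in OTX2low and 13 higher in OTX2high. Regions near 0 are not listed, so the release gene median lies among the 19 and does not describe the 13. Both medians hold listed regions alone, and with the reads of all of a gene's regions summed the release gene median was 0.35, or 0.89 above that of all genes. In 23 release genes the lead region lay in a H3K4me3 peak and had at least 100 normalized reads in 1 condition. Of these, 14 were higher in OTX2low (3.48% of all genes) and 9 higher in OTX2high (40.9%). Among all 8866 genes with such a lead region, 7.84% were higher in OTX2low. Any region above 0 stands in that top share by definition, and the 14 lay between percentiles 93.3 and 99.5 of the log2 ratio.

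**Figure D1:**
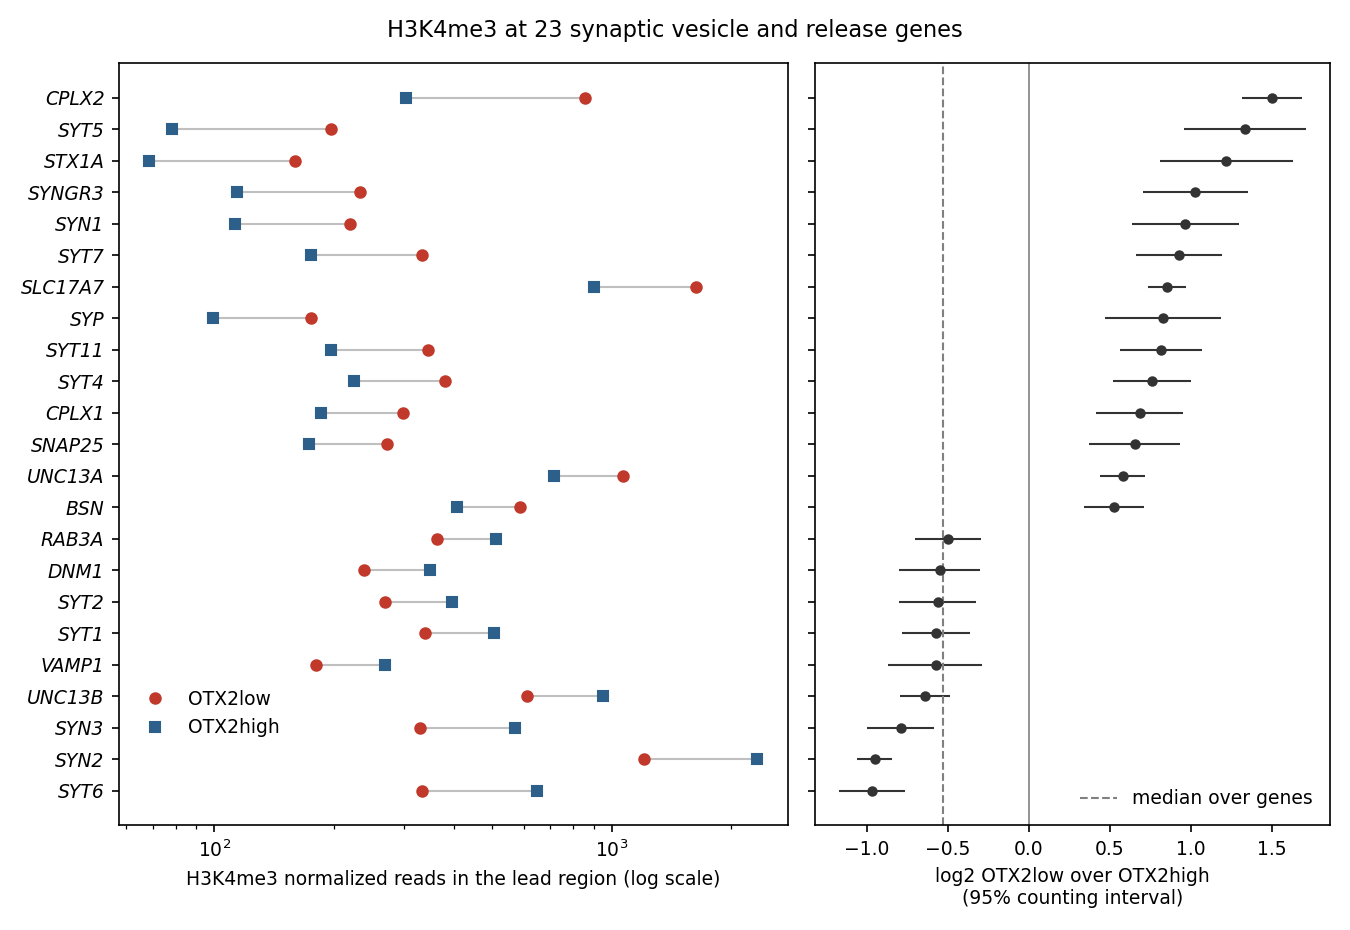
H3K4me3 at the 23 release genes whose lead region lay in a peak with at least 100 normalized reads. Left, normalized reads in OTX2low (circles) and OTX2high (squares) on a log axis, and right, log2 of OTX2low over OTX2high with 95% counting intervals (n = 1 library per condition). The 14 genes from CPLX2 to BSN lie right of 0, while 6 of the 9 below them have intervals that hold the median over genes of -0.53 (dashed line).

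The promoters below belong to genes whose lead region covered the annotated start and had more H3K4me3 in OTX2low. BSN and SYT11 also met this rule and are not printed. Each runs from 250 bases before to 50 bases after the start, 5' to 3' on the gene's strand, from RefSeq (GRCh38.p14). Capitals mark the letters searched for on both strands, which were TAATCC (the core of OTX sites), CAGCTG and CAGATG (E-boxes), and CAGCACC and GGACAG (parts of the REST element).
SYN1, chrX:47619808-47620107, minus strand: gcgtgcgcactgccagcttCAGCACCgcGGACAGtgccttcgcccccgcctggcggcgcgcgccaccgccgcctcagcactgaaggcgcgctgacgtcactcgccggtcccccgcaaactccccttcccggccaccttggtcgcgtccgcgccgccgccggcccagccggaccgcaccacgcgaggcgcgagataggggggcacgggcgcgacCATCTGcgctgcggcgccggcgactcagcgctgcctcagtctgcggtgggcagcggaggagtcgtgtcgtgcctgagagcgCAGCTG
UNC13A, chr19:17688305-17688604, minus strand: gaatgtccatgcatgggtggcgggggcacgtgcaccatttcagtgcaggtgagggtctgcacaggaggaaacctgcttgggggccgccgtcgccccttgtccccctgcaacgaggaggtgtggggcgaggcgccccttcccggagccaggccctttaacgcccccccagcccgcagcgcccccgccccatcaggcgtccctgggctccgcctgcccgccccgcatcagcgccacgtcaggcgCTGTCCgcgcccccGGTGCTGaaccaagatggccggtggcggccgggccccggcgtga
SLC17A7, chr19:49441478-49441777, minus strand: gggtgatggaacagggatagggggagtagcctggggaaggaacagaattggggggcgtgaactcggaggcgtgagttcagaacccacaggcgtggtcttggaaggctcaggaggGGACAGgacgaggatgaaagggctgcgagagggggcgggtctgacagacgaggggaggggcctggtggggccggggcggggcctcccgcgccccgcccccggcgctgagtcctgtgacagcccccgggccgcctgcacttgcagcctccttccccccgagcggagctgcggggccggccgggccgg
SYT4, chr18:43277441-43277740, minus strand: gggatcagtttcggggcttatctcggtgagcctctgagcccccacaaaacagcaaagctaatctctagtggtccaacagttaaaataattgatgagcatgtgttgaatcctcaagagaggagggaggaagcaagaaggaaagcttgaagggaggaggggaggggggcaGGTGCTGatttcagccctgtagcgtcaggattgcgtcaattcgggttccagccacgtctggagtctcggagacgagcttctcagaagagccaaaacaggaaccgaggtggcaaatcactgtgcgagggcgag
SYT5, chr19:55180240-55180539, minus strand: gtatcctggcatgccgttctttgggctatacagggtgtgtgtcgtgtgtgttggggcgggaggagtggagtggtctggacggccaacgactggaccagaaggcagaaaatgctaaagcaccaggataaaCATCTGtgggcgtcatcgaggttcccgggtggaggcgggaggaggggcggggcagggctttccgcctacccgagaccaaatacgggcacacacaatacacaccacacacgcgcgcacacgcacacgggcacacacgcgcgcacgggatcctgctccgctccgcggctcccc

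Only the SYN1 promoter among those printed holds CAGCACC and GGACAG in the spacing of a whole REST element, with 2 bases between them. In UNC13A both words are present on the opposite strand in a wider spacing, SLC17A7 has GGACAG alone, SYT4 has CAGCACC alone and SYT5 has CAGATG alone. The BSN promoter, not printed, has GGACAG alone, and that of SYT11 has CAGCTG alone. RefSeq promoters were matched for 31 of the 38 genes. CAGCACC was found in 9 of the 31 (29%), against 7.71% of all 15812 promoters of the same length, and GGACAG in 10 (32.3%), against 21.2%. The pattern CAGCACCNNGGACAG, which holds both words and was searched for after the single words had been counted, was found in 2 of the 31, SYN1 and RPH3A, and in 12 of the 15812. CAGCTG was in 7 (22.6%, against 17.7%), CAGATG in 5 (16.1%, against 11.7%) and TAATCC in 0 (against 5.31%). The release gene promoters had a median C+G share of 69.7%, against 62.7% over all promoters. These are counts of letters in a window, with CAGCTG its own reverse complement, and are no measure of binding.

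Promoters of the genes that were higher in OTX2high are shown for contrast. SYN2 and SYT6 had the lowest log2 ratios among the 23 lead regions, and both were singled out after their values were seen.
SYN2, chr3:12004138-12004437, plus strand: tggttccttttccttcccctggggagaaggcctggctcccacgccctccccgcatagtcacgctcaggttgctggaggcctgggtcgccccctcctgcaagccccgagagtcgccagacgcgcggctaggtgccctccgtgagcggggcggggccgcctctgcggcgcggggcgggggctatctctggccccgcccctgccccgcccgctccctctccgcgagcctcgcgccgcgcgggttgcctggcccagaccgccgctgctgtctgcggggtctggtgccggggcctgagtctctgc
SYT6, chr1:114153820-114154119, minus strand: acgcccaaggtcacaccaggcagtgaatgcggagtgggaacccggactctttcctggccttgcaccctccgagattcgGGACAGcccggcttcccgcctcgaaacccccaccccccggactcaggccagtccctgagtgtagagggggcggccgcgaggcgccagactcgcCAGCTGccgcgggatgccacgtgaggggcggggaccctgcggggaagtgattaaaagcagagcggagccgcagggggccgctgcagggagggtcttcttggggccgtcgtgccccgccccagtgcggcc

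SYN2 holds none of the searched words in this window, and SYT6 holds GGACAG and CAGCTG. The lead region of SYT6 covers its start, while that of SYN2 begins 113 bp downstream of it.

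Synapsins, the phosphoproteins that hold vesicles in the reserve pool, were split between the conditions. SYN1 had 219 normalized reads in OTX2low, against 112 in OTX2high, in the region chrX:47618001-47620000, which covers the start and most of the promoter printed above. It was 1.95-fold higher in OTX2low (log2 0.96, interval 0.64 to 1.29). SYN2 went the other way. Its lead region, chr3:12004501-12012200, had 1203 normalized reads in OTX2low, against 2326 in OTX2high (log2 -0.95, interval -1.06 to -0.85). All 11 of its listed regions, spread over the gene body, were lower in OTX2low, and its H3K4me3 peaks covered 6154 bp in 1 peak in OTX2low and 17346 bp in 18 peaks in OTX2high. SYN3 had 329.7 and 569.6 normalized reads in OTX2low and OTX2high (log2 -0.79, interval -0.998 to -0.583), in a region that also lies at TIMP3, a gene within its intron on the other strand.

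Among vesicle membrane proteins, SYP and SYNGR3 were higher in OTX2low. SYP encodes synaptophysin, the most used marker of synaptic vesicles. Its region chrX:49198101-49199500, which begins 693 bp downstream of the start, had 175.5 normalized reads in OTX2low, against 98.9 in OTX2high (log2 0.83, interval 0.47 to 1.19). SYNGR3, synaptogyrin 3, had 232 in OTX2low, against 114 in OTX2high, at chr16:1989201-1991600 (log2 1.02, interval 0.70 to 1.35), where GFER lies as well. SV2A and SYNGR1 had H3K4me3 peaks and no listed region. At SV2B and SV2C, which with SV2A encode the SV2 glycoproteins bound by botulinum toxins, the listed regions were weak, with at most 48.7 normalized reads.

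The synaptotagmins were split. Of the 7 with a lead region in a peak and at least 100 normalized reads, SYT4, SYT5, SYT7 and SYT11 were higher in OTX2low, and SYT1, SYT2 and SYT6 higher in OTX2high. SYT5 at chr19:55178301-55180600 had 197 normalized reads in OTX2low, against 78.2 in OTX2high, a 2.52-fold difference (log2 1.33, interval 0.96 to 1.71). The region lies at PTPRH too. SYT7, a slow calcium sensor linked to asynchronous release, had 333 in OTX2low, against 175.5 in OTX2high, at chr11:61578401-61581500 (log2 0.93, interval 0.66 to 1.19). Reads over IgG in the authors' deposited table were 20.7 and 20.4 there in OTX2low and OTX2high, a far smaller difference than that of the reads. SYT4, which lacks a calcium-binding residue of the fast sensors, had 381 in OTX2low, against 225 in OTX2high, at chr18:43275501-43277600 (log2 0.76, interval 0.52 to 1.00). A second region just downstream, chr18:43274201-43275400, had 63.9 in OTX2low, against 25.5 in OTX2high.

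SYT11 showed both directions within a few kb. The region over its start, chr1:155859101-155861500, had 345 normalized reads in OTX2low, against 196 in OTX2high (log2 0.81, interval 0.56 to 1.07). The region just upstream, chr1:155857801-155859000, had 77.7 in OTX2low, against 144 in OTX2high (log2 -0.89, interval -1.33 to -0.46). GON4L lies within 2 kb of both. SYT1 and SYT2, the fast calcium sensors of synchronous release, were not among the genes higher in OTX2low. SYT1 had 339.7 normalized reads in OTX2low, against 504 in OTX2high (log2 -0.57), and SYT2 had 268 in OTX2low, against 396 in OTX2high (log2 -0.56), in a region 65854 bp downstream of its annotated start. SYT6 had 332 in OTX2low, against 649 in OTX2high, at chr1:114151401-114154800 (log2 -0.97, interval -1.17 to -0.77). SYT13 had a weak region at 0 normalized reads in OTX2low and 15.2 in OTX2high, outside any H3K4me3 peak.

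The SNARE proteins form the fusion complex from syntaxin and SNAP25 on the plasma membrane and a VAMP on the vesicle. The plasma membrane members had higher lead regions in OTX2low and the VAMPs did not. STX1A, syntaxin 1A, had 159 normalized reads in OTX2low, against 68.6 in OTX2high, at chr7:73716601-73719000 (log2 1.21, interval 0.81 to 1.63). SNAP25 had 272 in OTX2low, against 173 in OTX2high, at chr20:10219401-10220700 (log2 0.65, interval 0.37 to 0.93). As at SYT11, a neighbouring region of SNAP25, chr20:10217601-10218900, had the opposite direction, with 147 in OTX2low and 235 in OTX2high (log2 -0.68, interval -0.999 to -0.363). VAMP1 had 181 in OTX2low, against 269 in OTX2high (log2 -0.57), in a region that TAPBPL shares. VAMP2, synaptobrevin 2, had a weak region upstream of its start with 0 reads in OTX2low and 15.2 normalized reads in OTX2high. Against a floor of 3 reads it was 4.03-fold lower in OTX2low, and its interval ran from log2 -1.57 downward.

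Both complexins were higher in OTX2low, and CPLX2 had the largest log2 ratio of the 23 lead regions. Complexins clamp and then promote the assembled SNARE complex. CPLX2 had 856 normalized reads in OTX2low, against 303 in OTX2high, at chr5:175870501-175875700, a 2.82-fold difference (log2 1.50, interval 1.31 to 1.68) that is 2.03 above the median over genes. The region lies inside the gene span, 73968 to 79167 bp downstream of the annotated start. CPLX1 had 298 in OTX2low, against 186 in OTX2high, at chr4:825001-826800 (log2 0.68, interval 0.42 to 0.95).

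At the active zone, UNC13A and BSN were higher in OTX2low at their lead regions. UNC13A encodes the priming factor Munc13-1, and its region chr19:17685601-17689100 had 1066 normalized reads in OTX2low, against 714 in OTX2high (log2 0.58, interval 0.44 to 0.71). Its paralog UNC13B had 612 in OTX2low, against 953 in OTX2high (log2 -0.64, interval -0.79 to -0.49). These paralogs thus had opposite signs. Listed regions had passed the authors' threshold, so intervals on opposite sides of 0 follow from the listing. The interval of UNC13B held the median over genes of -0.53. BSN, the scaffold bassoon, had 587 in OTX2low, against 408 in OTX2high, over its start at chr3:49554201-49556600 (log2 0.53, interval 0.34 to 0.71). The overlapping region upstream, chr3:49553401-49554500, had 206 in OTX2low, against 294 in OTX2high (log2 -0.52, interval -0.79 to -0.25). A further region at the far end of BSN, which APEH shares, had 229 in OTX2low, against 339.8 in OTX2high. RIMS1, RIMS2 and PCLO, the RIM scaffolds and piccolo, had listed regions outside peaks with at most 28.8 normalized reads.

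The vesicular transporters decide which transmitter a vesicle holds. SLC17A7, which encodes VGLUT1, the glutamate transporter of mature granule neurons, had 1629.6 normalized reads in OTX2low, against 903 in OTX2high, at chr19:49436101-49441700 (log2 0.85, interval 0.74 to 0.97). Upstream, chr19:49442901-49444200 had 233 in OTX2low, against 321 in OTX2high (log2 -0.46, interval -0.72 to -0.21), so this gene counts as mixed. SLC32A1, which encodes the GABA and glycine transporter VGAT, had H3K4me3 peaks in both lists and no listed region. RAB3A, the vesicle GTPase that binds RIM proteins, had 362 in OTX2low, against 511 in OTX2high (log2 -0.50), at a region upstream of its start that PDE4C shares. DNM1, the dynamin that cuts endocytic vesicles from the membrane, had 238 in OTX2low, against 349 in OTX2high (log2 -0.55), with CIZ1 within 2 kb. SNAP91, the clathrin adaptor AP180, had no listed region.

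**Figure D2:**
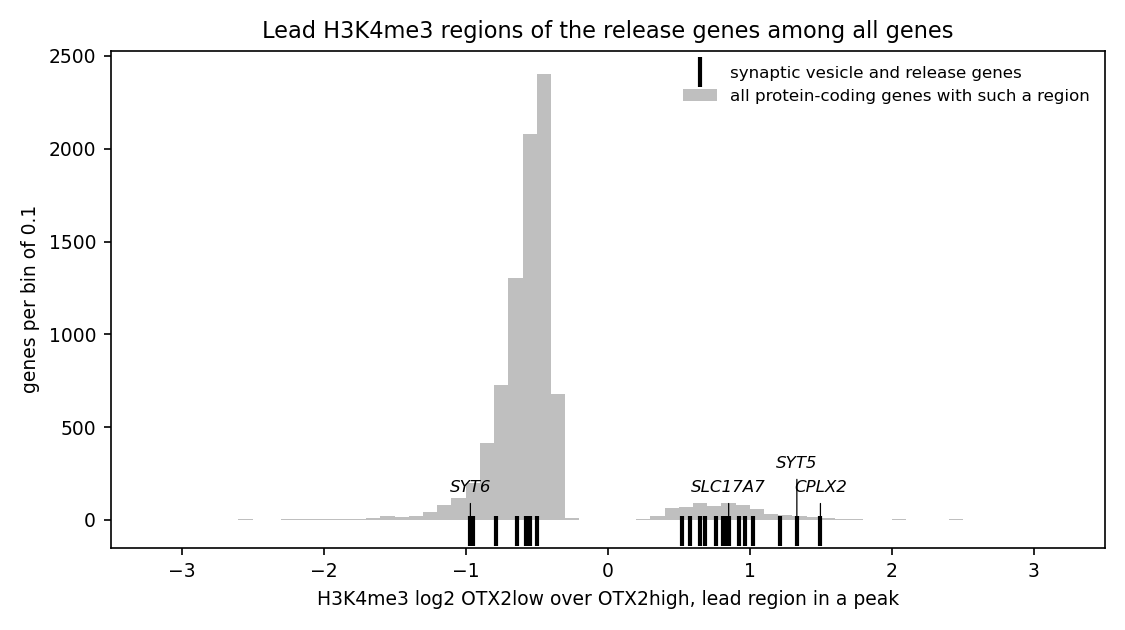
Lead H3K4me3 regions of the 23 release genes (ticks) among the 8866 protein-coding genes with such a region (grey bars, genes per bin of 0.1), by log2 of OTX2low over OTX2high. The gap around 0 holds regions the authors' scan did not list. Most genes lie near the median of -0.52, and 14 of the 23 ticks lie in the small group right of 0.

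The genes that were higher in OTX2high mostly followed the bulk of genes. Of the 9 lead regions, 6 (SYT1, SYT2, VAMP1, UNC13B, RAB3A and DNM1) had an interval that held the median over genes of -0.53. The intervals of SYN2, SYN3 and SYT6 lay below it. In the authors' deposited table, reads over IgG were also higher in OTX2low at all 14 lead regions with more reads in OTX2low. At 13 of them, all but SYT7, the ratio was more than 1.1 times that in OTX2high. The ratio rests on the same ChIP libraries, and no share over all genes is given for it. At SYT1 and VAMP1 the same ratio went against the reads, at 20.5 and 23.8 in OTX2low, against 18.4 and 19.9 in OTX2high, in the authors' deposited table. Relative to the median over genes, 19 of the 38 were at least 2-fold higher in OTX2low (7.08% of all genes) and 4, SYT13, VAMP2, SV2B and SV2C, at least 2-fold higher in OTX2high (4.41%). Those 4 and 5 of the 19 rest on weak regions with at most 48.7 normalized reads.

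The weak regions account for the other 9 lead regions. Those of RIMS1, RIMS2, PCLO, RAB3C and RPH3A had more reads in OTX2low and those of SYT13, VAMP2, SV2B and SV2C more in OTX2high. At PCLO the library in OTX2low had 16.3 normalized reads and that in OTX2high 0. With the 0 set to 3 reads, PCLO was 6.81-fold higher in OTX2low, and its interval ran from log2 2.26 upward. RPH3A had 21.3 in OTX2low and 1.6 in OTX2high, and RAB3C had 18.8 and 1.6. Of these 9 regions, 6 lay outside every H3K4me3 peak.

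Around the annotated start, the regions higher in OTX2low were centred downstream. Within 2 kb upstream to 5 kb downstream of a start, 9 release gene regions in peaks with at least 100 normalized reads were higher in OTX2low, and the centre of all 9 was downstream of the start, as for 81.7% of 591 such regions over all genes. Of the 9, 7 covered the start, against 38.6% over all genes. Another 10 regions were higher in OTX2high, of which 6 had a downstream centre, against 68% of 7439 over all genes. SYT11, BSN and SLC17A7 each had a region higher in OTX2low over the start and one higher in OTX2high on its upstream side. Mixed directions within 2 kb of a start were found at these 3 of the 31 genes with an annotated start and at 0.904% of all genes.

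**Figure D3:**
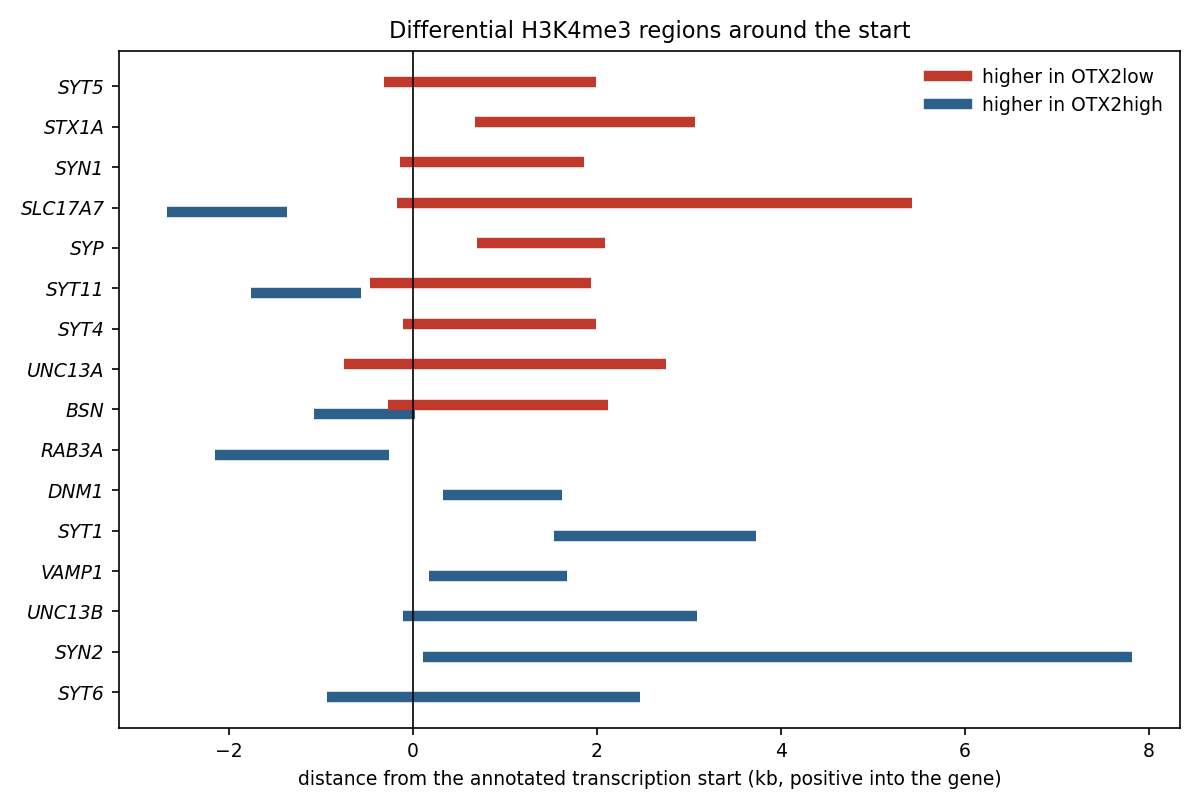
Listed H3K4me3 regions of 16 release genes in peaks with at least 100 normalized reads, by distance in kb from the annotated start (vertical line, positive into the gene). Red bars were higher in OTX2low and blue bars higher in OTX2high. At SYT11, BSN and SLC17A7 a blue bar lies on the upstream side of a red one.

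H3K27me3 lay at up to 20 of the release genes, in long stretches at some synaptotagmins and at RPH3A. A peak was found at 15 of the 38 in the list labelled OTX2low (17.7% of all genes) and at 20 in the list labelled OTX2high (25.8%), and all 15 were among the 20. Both marks, each in at least 1 list, were present at 19 (17.5% of all genes). Every one of the 20 had more bp under peaks in the list labelled OTX2high, the list of the deeper library with a fragment length of 169 bp, against 78 bp for the list labelled OTX2low. RPH3A, the gene without H3K4me3, had the most, with 84 peaks over 12259 bp in the list labelled OTX2low and 232 peaks over 122445 bp in the list labelled OTX2high. SYT2 followed with 18389 and 56308 bp, and SYT7 with 13099 and 52482 bp in the same lists. Of the 9 synaptotagmins, 5 had a peak in the list labelled OTX2low and 7 in the list labelled OTX2high, while 18 of the 38 genes, among them SYN1, SYN2, SYP, SYT1 and SYT4, had no H3K27me3 peak in either.

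**Figure D4:**
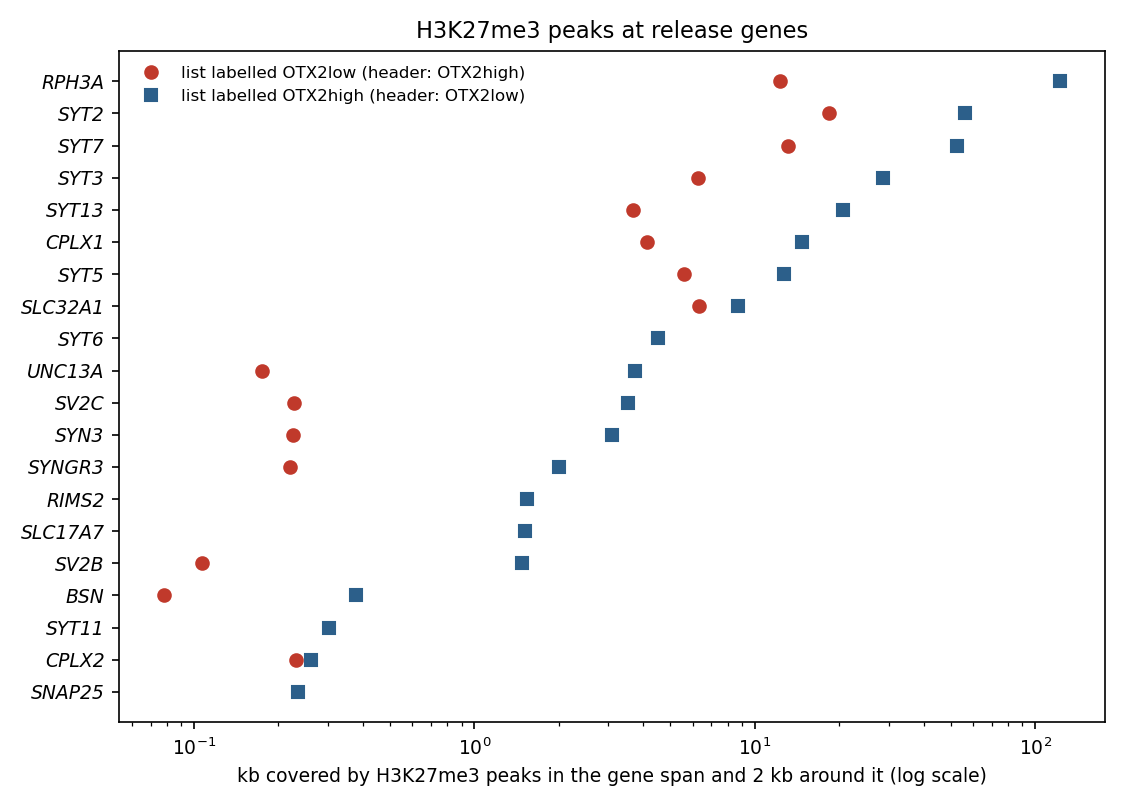
Length in kb covered by H3K27me3 peaks at the 20 release genes with such a peak (log axis), in the list labelled OTX2low (circles) and the list labelled OTX2high (squares). The square lies right of the circle at every gene with both, and 5 genes have a square alone.

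Listed H3K27me3 differences at release genes were all under 2-fold. In the authors' differential table, read with its own condition names, 8 of the 38 were higher in OTX2low (7.1% of all genes), 3 higher in OTX2high (3.36%) and none mixed (0.255%). The median over the lead regions of the 2139 genes with one was 0.33, while over all 5401 regions, in genes or not, it was -0.48. SYT5 had 3351 normalized reads in OTX2low, against 2705 in OTX2high, over chr19:55152001-55195000 (log2 0.31, interval 0.23 to 0.38), a domain that takes in TNNI3, DNAAF3 and PTPRH. SLC32A1 had 3268 in OTX2low, against 2619 in OTX2high, over chr20:38699001-38743000 (log2 0.32, interval 0.24 to 0.40). Each of these domains had more reads in OTX2low by about as much as the median gene. CPLX1 had 1297 normalized reads in OTX2low, against 1019.9 in OTX2high (log2 0.35, interval 0.23 to 0.47), SYT2 had 1285, against 1071 (0.26, interval 0.14 to 0.38), and SYT7 had 1217, against 968 (0.33, interval 0.21 to 0.46). Taken relative to the median over genes, 7 of the 8 lay between -0.07 and 0.04, and SYT6 lay at 0.23. With the ratios recentred on that median, 5 were higher in OTX2low and 6 higher in OTX2high, and recentred on the median over all regions, 8 and 3. These recentred counts have no share over all genes beside them.

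CPLX2 had the opposite sign in H3K4me3 and H3K27me3. Its H3K27me3 region chr5:175862001-175906000 had 680.45 normalized reads in OTX2low, against 1127 in OTX2high (log2 -0.73, interval -0.87 to -0.59). That is -1.06 after the median over genes was subtracted, but the median over all 5401 regions was itself -0.48. H3K27me3 peaks at CPLX2 covered only 230 bp in the list labelled OTX2low and 261 bp in the list labelled OTX2high. The H3K27me3 region holds the H3K4me3 lead region that was higher in OTX2low. Reads over IgG there were 1.49 in OTX2low and 2.35 in OTX2high in the authors' deposited table. SYT6 was the reverse of CPLX2, with lower H3K4me3 and 548 H3K27me3 normalized reads in OTX2low, against 373 in OTX2high (log2 0.56, interval 0.36 to 0.75), over chr1:114142001-114162000. If the labels of the H3K27me3 samples were right, the marks would share a sign at both genes. SYT2 also had opposite signs at its lead regions, with a log2 of -0.56 for H3K4me3 and 0.26 for H3K27me3, as did RIMS2, at 2.18 and -0.52. With the table's names, the lead regions of SYT5, SYT7, CPLX1 and RPH3A had both marks higher in OTX2low, and those of SV2C both higher in OTX2high. The H3K4me3 lead regions of RIMS2, RPH3A and SV2C are weak ones. RIMS2 and SV2C also had other H3K4me3 regions of the opposite direction, so no H3K4me3 direction holds for either gene as a whole. For H3K27me3, RIMS2 and SV2C had 7 and 6 regions higher in OTX2high. Reads over IgG in the authors' deposited table ranged over 0.48 to 0.84 at RIMS2, below 1 in both conditions, and 0.89 to 1.75 at SV2C.

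H3K27me3 peaks of either list overlapped 11 of the 23 H3K4me3 lead regions themselves (47.8%, against 5.53% of the 8866 over all genes). At SYT2, SYT5, SYT7, CPLX1, CPLX2 and SYNGR3 they came from both lists, at SYT6, SYT11, UNC13A and SLC17A7 from the list labelled OTX2high alone, and at BSN from the list labelled OTX2low alone. The other 12, among them SYN1, SYP, SYT4, SNAP25 and STX1A, had H3K4me3 with no overlapping H3K27me3 peak. Of the 14 lead regions higher in OTX2low, 9 overlapped such a peak (64.3%), and of the 9 higher in OTX2high, 2 did (22.2%). Over all genes the shares were 39.1% of 695 and 2.67% of 8171, with the higher share likewise among regions higher in OTX2low. Some of the 11 overlaps rest on thin peaks. That of BSN was 78 bp wide with 3.66-fold enrichment, and that of SYT11 304 bp with 3.57-fold. At a -log10 q-value of at least 10, 3 release genes kept an H3K27me3 peak in the list labelled OTX2low and 14 in the list labelled OTX2high. No share over all genes is given for this cut, so these counts cannot be set against the genome.

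Another 55 genes of vesicle release and recycling were listed by function. H3K4me3 was higher in OTX2low at 11 of them (20%, against 6% of all genes), higher in OTX2high at 19 (34.5%, against 41.7%) and mixed at 7, beside 34.2%, 31.6% and 18.4% of the 38. Recentred on the median over genes, the order turned, with 17 higher in OTX2low (19% of all genes) and 13 higher in OTX2high (23%). Of their 22 lead regions in peaks with at least 100 normalized reads, 5 were higher in OTX2low (22.7%, against 7.84% of the 8866 such regions over all genes) and 17 higher in OTX2high. Their median of -0.49 lay close to that over all genes, -0.52. CPLX4, a complexin of retinal ribbon synapses, had 23.8 normalized reads in OTX2low, against 215 in OTX2high (log2 -3.18, interval -3.93 to -2.51). ERC2, an active zone scaffold, had 127 in OTX2low, against 669 in OTX2high (log2 -2.40, interval -2.71 to -2.10). Complexin genes thus lay in both directions, CPLX1 and CPLX2 higher in OTX2low, and CPLX3 (log2 -0.91, interval -1.34 to -0.50) and CPLX4 higher in OTX2high. The lead regions next by distance from the median over genes were higher in OTX2low. They were those of RIMS3, a short RIM protein (log2 1.17, interval 0.92 to 1.42), PPFIA4, a liprin (0.97, interval 0.81 to 1.13), STON2, an endocytic adaptor for synaptotagmins (0.84, interval 0.41 to 1.27), and SVOP, a relative of SV2 (0.74, interval 0.40 to 1.08). STON2 and SVOP also had regions of the opposite direction, so both count as mixed. H3K4me3 peaks lay at 54 of the 55 in OTX2low and at 51 in OTX2high.

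OTX2 itself had 1768 H3K4me3 normalized reads in OTX2low, against 3119 in OTX2high, over its main region (log2 -0.82), or -0.29 relative to the median over genes. The siRNA acts on the transcript, so this mark is no direct check of the silencing.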

How the data were processed

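D283 tumorspheres were profiled by ChIP-seq for H3K4me3 and H3K27me3 in 1 library per condition. The submitters' processing notes name Bowtie2 2.3.3.1, MACS2 2.1.1.20160309 and GRCh38. Per the file headers, MACS2 was run once per ChIP library, with 1 IgG library as control and a q-value limit of 0.05. The authors' lists give per peak a pileup signal, -log10 p- and q-values and a fold enrichment ratio, used here only within a list. Differential regions came from diffReps 1.55.6, a G-test of 1 library against 1, with windows of 1000 bp (H3K4me3) or 10000 bp (H3K27me3) and a p-value threshold of 0.0001, per the file headers. Its deposited columns hold read signal scaled per library, a ratio over IgG, a p-value with its adjusted form and a log2 ratio that divides OTX2high by OTX2low. The H3K4me3 and H3K27me3 tables listed 21714 and 5401 regions. The 4 deposited columns of means repeat the reads and were not used.

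From these, log2 of OTX2low over OTX2high was recomputed from the scaled reads, with a library at 0 set to 3 reads. One read was worth 1.25 in OTX2low and 0.798 in OTX2high for H3K4me3, and 100% of values gave whole reads within 0.05. For H3K27me3, 99.963% did, and its reads are taken as approximate. A G-test on the recovered H3K4me3 reads at p of 0.0001 called 18380 of the 21714 regions. Exact conditional (Clopper-Pearson) intervals of 95% cover counting error only, since PCR reads are not independent molecules. Overlaps needed 1 bp. Spans are from RefSeq GRCh38.p14, of the same build. Interval and overlap code was tested on simulated data. Python 3.11.15, pandas 2.3.3 and scipy 1.17.1 were used.

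Members and gene lists were chosen with earlier results of these data known. Full values were to be given for at most 14 members with a lead H3K4me3 region in a peak and at least 100 normalized reads, by distance from the median over genes, for at most 6 with H3K27me3 regions, for members with a H3K4me3 peak in 1 list alone, and for at most 6 other release genes. With 1 library per condition no test across samples exists, and none was made. Alternatives changed the peak threshold, overlap, window, scaling, read minimum, adjusted p and the rule for a gene's direction.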

Additional observations from a re-analysis of the deposited data

How the results depend on the processing

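No paired analysis was possible because each mark had 1 library per condition. Of 71 recomputed values, 55 were labelled the same as the reported ones, 16 moved and 0 reversed. The label is a loose one. By the direction of the lead region, 19 genes rather than 13 had H3K4me3 higher in OTX2low. That was 59.4% of the 32 with a listed region, against 13.8% of 10724 over all genes. With a -log10 q-value of at least 10, the 20 genes with H3K27me3 peaks in the list labelled OTX2high became 14. Most values are counts, which cannot change sign, and the order of the directions did turn in places. For each that moved, the cause was not tested, except that only 31 of the 38 genes have an annotated start. Within 2 kb of the start, H3K27me3 peaks lay at 7 genes (list labelled OTX2low) and 10 (list labelled OTX2high), H3K4me3 was higher in OTX2low at 6, H3K27me3 was higher in OTX2low at 3 and in OTX2high at 0, and 9 genes were at least 2-fold higher in OTX2low and 1 in OTX2high relative to the median over genes. With a -log10 q-value of at least 10, H3K27me3 peaks in the list labelled OTX2low fell to 3 genes. With an adjusted p of at most 0.0001, H3K4me3 was higher in OTX2high at 7. Recentred on the median over genes, H3K27me3 was higher in OTX2low at 5 and in OTX2high at 6, which turns the order of 8 and 3. With summed reads the release gene median was 0.351 and its distance from all genes 0.894. With at least 20 normalized reads, 2 genes were 2-fold higher in OTX2high. For the other 55 release genes, checked after seeing the data, H3K4me3 was higher in OTX2low at 7 and in OTX2high at 18 with regions in peaks alone, and at 17 and 13 when recentred, which turns the order of the directions. Recentred on the median over all regions, also added later, H3K27me3 stayed at 8 and 3 genes. The G-test on recovered reads, also added later, gave 14 genes higher in OTX2low and 12 higher in OTX2high. Most of the other counts in this section have no share over all genes at the same setting beside them. Such counts cannot be set against the genome. Depth limits the weak regions, and a gene without a listed region cannot be called unchanged.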
